A study of Homo sapiens with 3 samples.

Results

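The 7 genes described here are TXNIP and its relatives ARRDC2, ARRDC3 and ARRDC4, which encode alpha-arrestins, together with MLXIP, MLXIPL and MLX, which encode the transcription factors MondoA and ChREBP and their common dimer partner. They were taken as all probe sets that the platform annotation assigns to 1 of these genes alone, which gave 17 of the 54613 probe sets on the array and 7 of 19775 named genes. The set was chosen by the log2 signals of TXNIP and ARRDC4, already seen to be far apart between the wild-type and mutant JMJD3 arrays, so these values are a description and support no test. The data come from 3 stable, otherwise untreated derivatives of PANC-1, a long-established line of human pancreatic ductal adenocarcinoma cells, with 1 array each. The control line held the empty MSCV retroviral vector, the second expressed JMJD3 in its wild-type form, the third a mutant form, and all were profiled as total RNA on Affymetrix 3' expression arrays. The labels name neither the mutation nor whether a line is 1 clone or a pool. JMJD3 is the enzyme encoded by KDM6B, which removes a repressive methyl mark from histone tails. The title of the series ties JMJD3 to HKDC1 and the spectrin cytoskeleton. With 1 array per line there is no replicate error, no test was run, and precision is limited by the number of arrays.

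Thioredoxin-interacting protein, the product of TXNIP, binds reduced thioredoxin and promotes the internalisation of glucose transporters. The other alpha-arrestins act as adaptors that bring NEDD4-type ubiquitin ligases to membrane proteins. MondoA and ChREBP sense phosphorylated glucose, pair with MLX and bind paired E-box elements. TXNIP and ARRDC4 are textbook targets of this pair of factors, and TXNIP in turn restrains glucose uptake.

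The start regions of the genes are shown first, since TXNIP and ARRDC4 had nearly the same gap between the JMJD3 arrays and ARRDC2 was nearly level. The sequences are the 250 bases before the start, read 5′ to 3′ on the gene's strand, from RefSeq (GRCh38.p14), where all 7 genes matched by symbol with 10 windows. Capitals mark 3 kinds of letters searched on both strands: the E-box CACGTG, the paired element, which is CACGNG repeated once with 5 bases between the copies, and the CCAAT box or its complement ATTGG. The windows lie at chr1:145996580-145996829 on the minus strand for TXNIP, chr15:97960453-97960702 on the plus strand for ARRDC4 and chr19:18007920-18008169 on the plus strand for ARRDC2.
TXNIP: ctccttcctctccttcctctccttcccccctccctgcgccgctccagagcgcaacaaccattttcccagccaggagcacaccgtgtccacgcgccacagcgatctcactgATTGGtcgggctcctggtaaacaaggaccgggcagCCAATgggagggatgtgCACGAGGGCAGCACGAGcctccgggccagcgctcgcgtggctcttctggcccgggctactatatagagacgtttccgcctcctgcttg
ARRDC4: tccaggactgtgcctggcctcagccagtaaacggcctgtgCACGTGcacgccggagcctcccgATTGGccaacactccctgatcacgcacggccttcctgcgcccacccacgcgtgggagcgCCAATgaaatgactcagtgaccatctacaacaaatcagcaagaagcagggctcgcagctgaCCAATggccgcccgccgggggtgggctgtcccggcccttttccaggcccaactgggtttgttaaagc
ARRDC2: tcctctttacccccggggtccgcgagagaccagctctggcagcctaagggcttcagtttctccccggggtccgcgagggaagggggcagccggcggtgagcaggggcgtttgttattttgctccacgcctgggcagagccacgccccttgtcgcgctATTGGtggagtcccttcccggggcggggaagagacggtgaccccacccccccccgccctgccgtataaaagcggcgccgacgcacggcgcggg
Bases are counted back from -1, the last base before the start. In TXNIP the paired element reads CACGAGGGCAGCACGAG from -88 to -72, and CCAAT boxes lie at -140 to -136 and -105 to -101. ARRDC4 holds CACGTG at -210 to -205 and CCAAT boxes that begin at -187, -128 and -67, but not the paired element in this form. Paired E-boxes with other letters or spacing were not searched, apart from the inverted form given below. The ARRDC2 window shown holds 1 CCAAT box, at -93 to -89, and none of the paired element or CACGTG letters. MLX has CACGTG at -50 to -45.

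Over all 35116 RefSeq windows of 300 bases, which run 50 bases past the start, the paired element was found in 0.057%, CACGTG in 7.26% and CCAAT in 34.6%. Of the 10 windows of the 7 genes, 6 held CCAAT, 2 held CACGTG and 1, that of TXNIP, held the paired element. The inverted form of that element, CACGNG followed after 5 bases by CNCGTG, was in 0.0228% of windows and in no window of the 7 genes. The forkhead motif GTAAACA was in 3.42% of windows and in 2 of the 10, 1 each of TXNIP and ARRDC3. The paired element was in windows of 20 genes, TXNIP included, and 16 of the others were measured on the arrays. Their median log2 difference was 0.01 for mutant JMJD3 against control, with a range from -0.74 to 1.45, and 1 of the 16 was 2-fold or more higher, against 2.98% of all measured genes. For wild-type against mutant, the comparison by which TXNIP was chosen, the range was from -1.61 to 1.02 around a median of -0.02, with 2 genes 2-fold or more lower and 1 higher, against 6.2% and 2.61%. The gene higher with mutant than in control was TIGD1, a gene derived from a transposase, which read log2 7.90 in control, 7.74 in the wild-type and 9.35 in the mutant JMJD3 array. It was picked out after its values were seen, and the other 15 were within 2-fold of control.

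Values below are log2 signals as deposited. For differences and counts, signals at or under the median of all arrays (log2 5.48) were set to that floor, and a gene was measured in a pair of arrays if either lay above it. Levels are compared between arrays and not between probe sets. The arrays had like medians, from log2 5.48 to 5.50. KDM6B was read by 5 probe sets, of which 1556067_a_at was 5.53 in control, 6.73 with wild-type and 6.45 with mutant JMJD3, while the brightest was 7.60, 7.66 and 7.65. The labels do not say which of them the introduced sequence would reach. Of 7 epithelial and ductal markers 6 were above the floor in every array and the cadherin gene CDH1 was not (4.62 in all), and all 4 mesenchymal markers were above it. The median of the ductal markers was 6.17 in control, 8.0 with wild-type and 8.4 with mutant JMJD3. That of the mesenchymal markers was 8.47, 8.5 and 9.94, highest in the same array as TXNIP, and its part in the results was not tested. None of the acinar, islet or leukocyte markers on the array was above the floor in any line, while 1 of 3 endothelial markers (PECAM1) and 2 of 4 fibroblast markers (COL1A1 and PDGFRB) were above it in all 3.

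**Figure D1:**
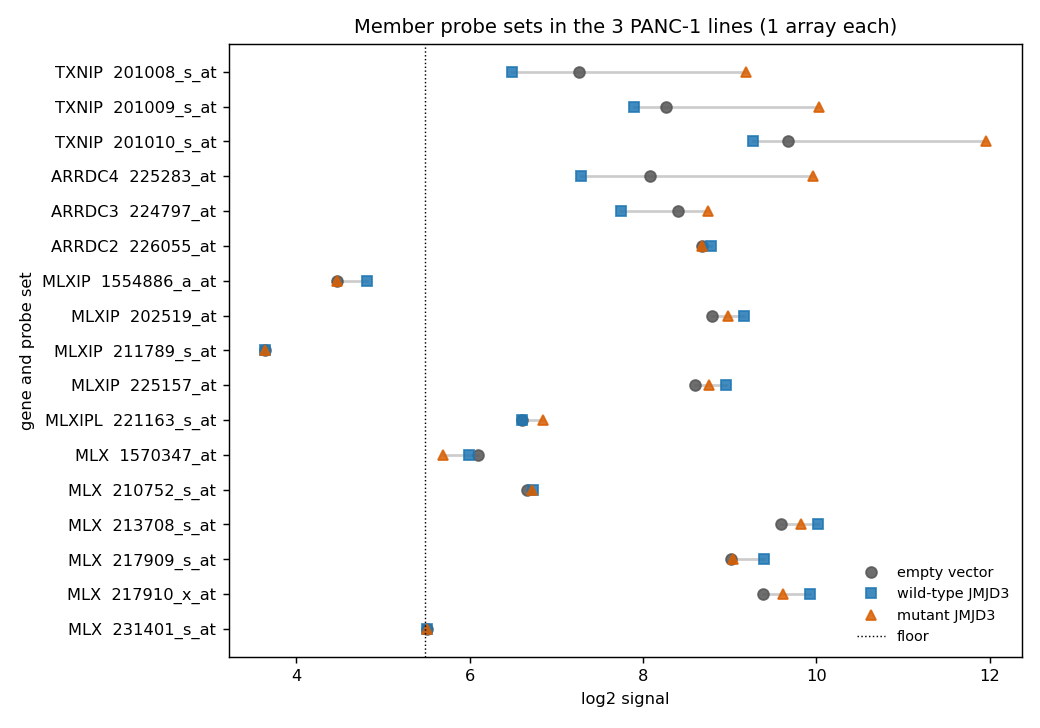
Log2 signal (x axis) of each of the 17 probe sets (y axis) in the empty vector line (circles), the wild-type JMJD3 line (squares) and the mutant JMJD3 line (triangles), with the floor as a dotted line and 1 array per line. The mutant array stands apart to the right for all 3 TXNIP probe sets and for ARRDC4, whereas the arrays lie close together for ARRDC2 and most probe sets of MLXIP and MLX.

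TXNIP was higher in the mutant JMJD3 array than in both others in all of its 3 probe sets, and lowest with wild-type JMJD3. The brightest, 201010_s_at, read log2 9.67 in control, 9.27 in the wild-type and 11.96 in the mutant JMJD3 array. Probe set 201009_s_at read 8.26, 7.90 and 10.03 in the same order. Probe set 201008_s_at read 7.26, 6.49 and 9.19. The order of the lines was thus the same in all 3, with the mutant array highest. Mutant JMJD3 exceeded control 4.89-fold, 3.41-fold and 3.81-fold in these probe sets, and exceeded wild-type 6.45-fold, 4.38-fold and 6.50-fold. In RNA from whole cultures, fewer cells with the transcript and less transcript per cell cannot be told apart. Wild-type JMJD3 was lower than control 1.32-fold, 1.28-fold and 1.71-fold, which in each probe set was less than 2-fold. All 3 identifiers end in _s_at, a mark of probes shared among transcripts, so TXNIP has no value once such probe sets are left out.

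ARRDC4, an alpha-arrestin reported like TXNIP to curb glucose uptake, gave the same picture from 1 unshared probe set. It read log2 8.08 in control, 7.28 in the wild-type and 9.96 in the mutant JMJD3 array. Mutant JMJD3 was 3.68-fold higher than control, and wild-type was 1.74-fold lower than control and 6.41-fold lower than mutant. On the log2 scale wild-type minus mutant was -2.68 for ARRDC4 and -2.69 for TXNIP. Both genes were thus about equally far apart between the JMJD3 arrays, with control nearer to wild-type.

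ARRDC3, an adaptor described for the beta-adrenergic receptor and for integrin beta 4, had the same order. Its only probe set read log2 8.40 in control, 7.75 in the wild-type and 8.75 in the mutant JMJD3 array. Wild-type was 1.57-fold lower than control, and mutant 1.27-fold higher. With mutant its distance from control was smaller than in every TXNIP probe set. With wild-type it was larger than in 201010_s_at and 201009_s_at of TXNIP but smaller than in 201008_s_at. The difference of ARRDC3 between wild-type and mutant was exactly 2-fold. On the log2 scale it was -0.99 with the arrays scaled to one median, -0.92 with quantile normalization and -0.87 when an offset replaced the floor. ARRDC3 is therefore at the edge of that count and not clearly inside it.

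ARRDC2, the remaining alpha-arrestin of the set, did not follow the others. It read log2 8.68 in control, 8.78 in the wild-type and 8.68 in the mutant JMJD3 array, a spread of 0.10 over the 3 arrays. Its difference of 0.00 between mutant and control took either sign with the scaling, 0.01 with the arrays scaled to one median and -0.05 with quantile normalization. Equal values occur often in the deposited columns: 31.5% of all probe sets, and 6.14% of those with a mean log2 signal between 8 and 10, held the same value in control and mutant. Identical deposited values are thus no evidence of identical transcript levels.

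The transcription factor genes differed little between the arrays. MLXIP, which encodes MondoA, read log2 8.80 in control, 9.17 in the wild-type and 8.98 in the mutant JMJD3 array in 202519_at. Probe set 225157_at read 8.60, 8.96 and 8.76. Control was lowest and wild-type highest in both, by 1.29-fold and 1.28-fold. The remaining MLXIP probe sets, 1554886_a_at and 211789_s_at, lay under the floor in every array.

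MLX, the dimer partner, was read by 6 probe sets, of which 5 have probes shared among transcripts. The brightest, 213708_s_at, read log2 9.59 in control, 10.02 in the wild-type and 9.82 in the mutant JMJD3 array. Probe sets 217909_s_at (9.02, 9.40 and 9.04) and 217910_x_at (9.38, 9.92 and 9.61) also had wild-type highest, by at most 1.45-fold over control. The other 3 did not show this order to that degree. Probe set 210752_s_at ranged from 6.66 to 6.73, 231401_s_at was 5.51 in all arrays, and the unshared 1570347_at read 6.10, 5.99 and 5.69. Since only that last probe set remains without shared ones, MLX then differed by -0.11 for wild-type against control and by -0.41 for mutant against control, in place of 0.43 and 0.23. MLXIPL, which encodes ChREBP, had 1 probe set, also shared, at 6.60, 6.60 and 6.85, nearer the floor and 1.19-fold higher with mutant JMJD3. No gene of the 3 factors differed by 2-fold in any comparison.

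In counts, 2 of the 7 genes were 2-fold or more higher with mutant JMJD3 than in control, TXNIP and ARRDC4, against 2.98% of all measured genes, and 0 were lower, against 0.535%. Between the JMJD3 arrays, 3 of 7 were 2-fold or more lower with wild-type, ARRDC3 being the one at the edge, against 6.2% of measured genes, and 0 were higher, against 2.61%. Those genes were chosen with this difference known. The mutant array values behind the choice also enter mutant against control, so nothing is read from the shares in either comparison. For wild-type JMJD3 against control 0 of 7 were 2-fold higher, against 0.953% of measured genes, and 0 were 2-fold lower, against 1.31%. The median of the 4 alpha-arrestins was 1.12 for mutant against control and -0.53 for wild-type against control, and that of the 3 factor genes was 0.23 and 0.37. Without shared probe sets TXNIP and MLXIPL drop out, and MLX is read by 1570347_at alone. The 1.12 was then 0.35, and the 0.23 was -0.12. Over all measured genes the medians were 0.00 and 0.05. Both differences share the control array and are not separate evidence.

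Among the 12244 genes above the floor in both mutant and control, TXNIP had rank 12 and ARRDC4 rank 34 from the highest difference. Among 12255 genes above it in both JMJD3 arrays, they had ranks 5 and 6 from the lowest, next to each other, and ARRDC3 had rank 701. Both rankings use the mutant array values by which TXNIP and ARRDC4 were chosen. For wild-type against control the ranks from the lowest of 12312 genes were 446 for ARRDC4, 888 for ARRDC3 and 1894 for TXNIP. In that comparison the 3 genes therefore lay in the lower part of a wide field and not at its end.

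**Figure D2:**
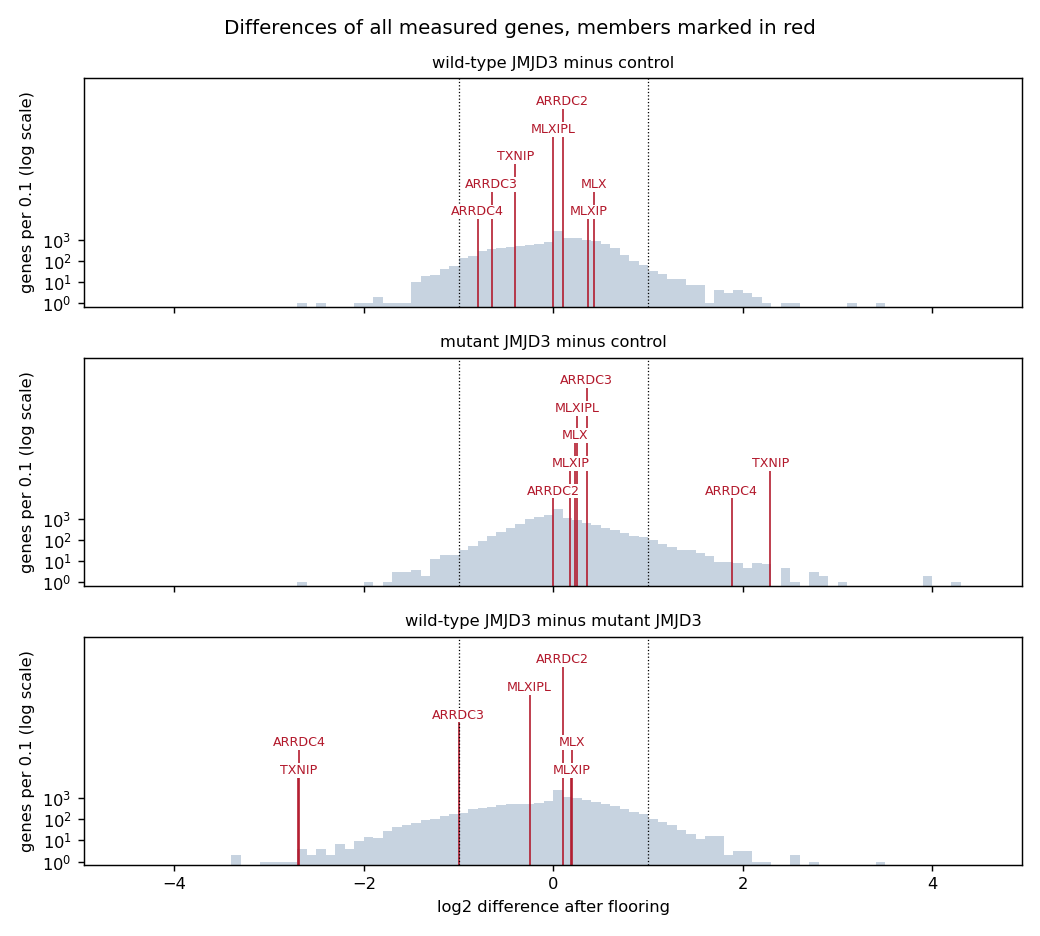
Histograms of the log2 difference (x axis, after flooring) of all measured genes in each comparison, as genes per 0.1 on a log scale (y axis), with the 7 genes as red lines whose heights only separate the labels and dotted lines at 2-fold. TXNIP and ARRDC4 lie in the upper tail for mutant against control and in the lower tail for wild-type against mutant, while the 3 factor genes stay in the centre of every panel.

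The genes whose pattern over the 3 arrays was nearest to that of TXNIP were sought among 12156 genes above the floor in all of them, by the distance between pairs of differences from control. H2BC21, a histone H2B gene, was nearest, at a distance of 0.02 on the log2 scale, with 9.22 in control, 8.82 with wild-type and 11.49 with mutant JMJD3. It was followed by ATP8A1, a phospholipid flippase gene (0.20), the adducin ADD3 (0.24), the zinc finger gene ZNF277 (0.38) and the protease inhibitor gene SPINK13 (0.44). The only H2BC21 probe set, 202708_s_at, is shared. Probe sets 1569773_at and 210192_at of ATP8A1 lay under the floor, so ATP8A1 has no value as a median of its probe sets. ARRDC4 itself had rank 10 from TXNIP, at 0.57.

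Nearest to ARRDC4 were CD24, a surface glycoprotein gene (0.23), the histone gene H2BC4 (0.25), ADD3 (0.34), ZNF277 (0.43) and the ubiquitin ligase gene HACE1 (0.47). ADD3 and ZNF277 were on both lists. All 4 ADD3 probe sets had mutant highest and wild-type lowest, with mutant over control by 1.62 to 2.29 on the log2 scale. ZNF277 was less even: 1555193_a_at went the same way as the brightest probe set, with 6.96, 6.49 and 8.83, but 215887_at read 7.04, 7.44 and 6.91. Taking the median of its probe sets, ZNF277 was 0.87 above control with mutant JMJD3, under 2-fold. A distance over 3 arrays says only that the values were alike.

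**Figure D3:**
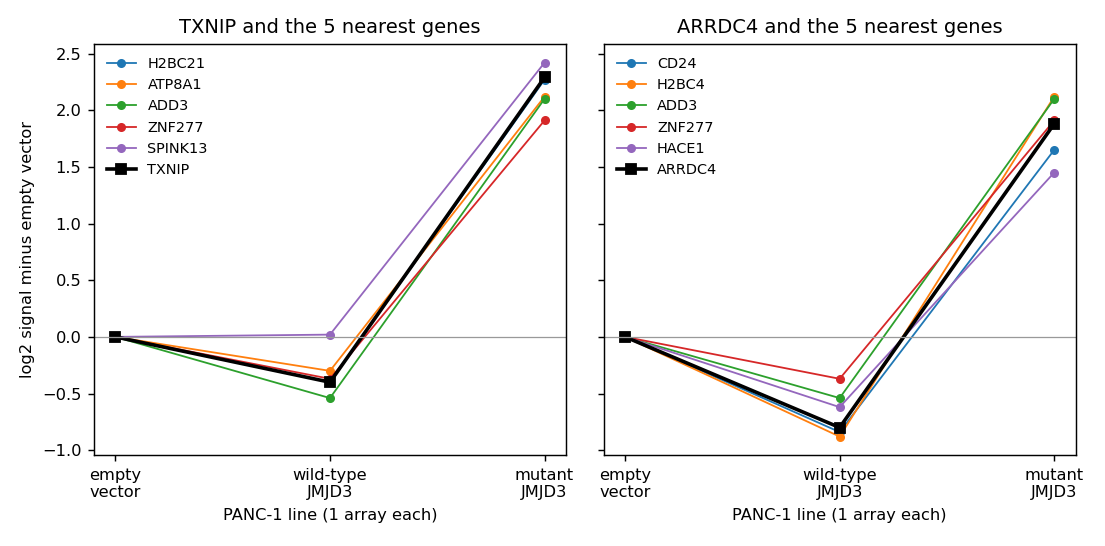
Log2 signal minus that of the empty vector line (y axis) in the 3 lines (x axis, 1 array each) for TXNIP (left) and ARRDC4 (right), in black squares, and for the 5 genes nearest to each, as coloured circles. All lines turn upward at the mutant array, and those of H2BC21 and TXNIP nearly coincide.

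Genes that act beside the 7 were tallied to show how far the pattern of TXNIP extends, with the brightest probe set for each gene and values in the order control, wild-type and mutant. Closest in kind are the other arrestins, of which 3 of 6 were measured. They were level in their brightest probe sets, and none differed by 2-fold. Their medians were 0.06 for wild-type against control, -0.06 for mutant against control and 0.12 for wild-type against mutant. All measured genes had 0.05, 0.00 and 0.00. ARRDC1, the further alpha-arrestin among them, read log2 7.39, 7.58 and 7.46. ARRB1 read 7.80, 7.86 and 7.74, and ARR3 5.99, 5.88 and 5.74. The ARRB1 probe set 222912_at was less level, at 6.73, 7.69 and 7.23, with wild-type highest and within 2-fold of control. The height of TXNIP and ARRDC4 in the mutant array was thus not shared by ARRDC1, ARRDC2 or the beta-arrestin measured. The NEDD4 family of ubiquitin ligases, to which alpha-arrestins bind, had 8 of 9 genes measured, and none was past 2-fold in its brightest probe set. Its medians were 0.00, 0.03 and 0.17 in the same order of comparisons, with signs that turned with the scaling or the choice of probe sets. NEDD4 (7.24, 6.89 and 7.75) and WWP1 (9.26, 8.85 and 9.66) had the order of TXNIP, WWP2 (7.76, 8.33 and 7.73) did not. ITCH, a ligase reported to degrade the TXNIP protein, stayed between 8.08 and 8.25 in its brightest probe set, 209744_x_at, whereas 235057_at read 7.57, 7.23 and 8.30 and 239101_at 7.14, 6.70 and 7.2, in the order of TXNIP. NEDD4L differed by probe set in the same way: the brightest, 212445_s_at, read 8.30, 8.83 and 8.5, but 226974_at read 5.93, 5.48 and 7.42 and 212448_at 6.64, 6.61 and 7.56. Wild-type minus mutant was past 2-fold in 235057_at of ITCH (-1.07), 226974_at of NEDD4L (-1.94) and 212637_s_at of WWP1 (-1.14), and mutant exceeded control by 1.49 in that NEDD4L probe set. These probe sets were named after their values were seen. Of 8 reported cargo or partner genes 6 were measured, with medians of -0.05, 0.05 and -0.11 and means of the opposite sign for mutant against control (-0.12) and wild-type against mutant (0.12). SLC2A1 was the only one of them past 2-fold.

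The MAX network holds the relatives of MLX that bind E-boxes in pairs. Of 10 genes 9 were measured, and 7 of the 9 were lower with wild-type than with mutant JMJD3, around a median of -0.30, while 40.5% of all measured genes were lower. MXI1, a repressor, read log2 11.17, 10.83 and 11.90, and MYC, an activator, 11.98, 11.55 and 12.57. Both had the order of TXNIP and were just past 2-fold between the JMJD3 arrays, at -1.07 and -1.02. These were 2 of the 9, where 6.2% of all measured genes were 2-fold or more lower. Against control the median was 0.42 with mutant and 0.00 with wild-type, none by 2-fold. The 0.42 was 0.00 without shared probe sets and 0.13 with the median over probe sets. Other reported targets of MondoA or ChREBP did not follow TXNIP as a group. Of 14 genes 9 were measured, with medians of 0.00, -0.22 and 0.33. With mutant JMJD3 6 of the 9 were lower than control, where 41.2% of all measured genes were. KLF10, a Krüppel-like repressor, was the only one 2-fold or more higher with mutant than in control, at 9.61, 9.56 and 10.70. FASN, the fatty acid synthase gene, ran the other way with 8.44, 9.03 and 7.94, and its difference of 1.09 between the JMJD3 arrays was 0.97 with an offset and 0.79 as a median of its probe sets. SCD, a further listed target, stayed within 2-fold in its brightest probe set, 200832_s_at (12.64, 12.41 and 12.28). Its other probe sets, 200831_s_at, 211162_x_at and 211708_s_at, had mutant minus control at -1.01, -1.05 and -1.16. Wild-type minus mutant was 1.24, 1.47 and 1.20 in them. They were named after their values were seen. KLF10 was thus the 1 listed target that shared with TXNIP and ARRDC4 a 2-fold height in the mutant array.

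SLC2A1 and SLC2A3, which encode glucose transporters, had the reverse order to TXNIP. SLC2A3 read log2 9.13, 9.62 and 7.85 in its brightest probe set, and its other 2 were also lowest with mutant. Wild-type minus control was 0.49 in the brightest and 1.16, past 2-fold, as a median of the SLC2A3 probe sets. SLC2A1 read 8.27, 8.80 and 7.15. Mutant minus control was -1.28 for SLC2A3 and -1.12 for SLC2A1, the latter -0.92 with an offset and -0.48 as a median of its probe sets, of which 1 lies under the floor. HKDC1, a hexokinase gene, was above the floor only with wild-type JMJD3 (4.19, 8.02 and 4.24), at least 5.82-fold over both others, and by 0.31 on the log2 scale as a median of its 4 probe sets. The list of 14 genes of glucose entry and phosphorylation had medians of 0.48 over 8 measured genes, -0.33 over 7 and 0.48 over 8, HKDC1 entering at its lower bound. With mutant against control 1 of 7 was higher and 4 were lower, against 45.9% and 41.2% of all measured genes, and the median of -0.33 was 0.00 when each gene was read by the median of its probe sets. With wild-type against mutant 7 of 8 were higher, against 49.7%, and 3 of them 2-fold or more, against 2.61%. SLC2A1 is also on the cargo list and HK2 on that of the Mondo targets. The list for the thioredoxin system, the redox relay that TXNIP inhibits, also holds thioredoxin-like genes such as TXNL4A (11.60, 11.85 and 11.63). Of the 17 listed genes 15 were measured, with medians of 0.24, -0.06 and 0.30, the last 0.12 with the median over probe sets. TXN, thioredoxin itself, read 13.28, 13.09 and 13.31, and the reductase TXNRD1 12.13, 11.93 and 12.33. The direct partner of TXNIP was thus nearly level while TXNIP was not. Between the JMJD3 arrays 12 of 15 were higher with wild-type, against 49.7% of all measured genes, and 3 by 2-fold or more, against 2.61%. These were the mitochondrial reductase TXNRD2 (9.13, 9.53 and 8.37) and the methionine sulfoxide reductases MSRA (8.82, 9.10 and 7.96) and MSRB1 (9.50, 10.22 and 9.11). As medians of their probe sets TXNRD2 and MSRA were at 0.58 and 0.57, each having a probe set under the floor.

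Known inputs to TXNIP were tallied last. AMPK, an energy-sensing kinase that phosphorylates TXNIP, had 6 of 7 subunit genes measured. All 6 were higher with mutant JMJD3 than in control, where 45.9% of measured genes were, but 4 of 6 with quantile normalization. None was so by 2-fold in its brightest probe set. PRKAA1 differed by probe set, with 1.26 in 225985_at and -0.49 in 209799_at. The list medians were -0.20, 0.42 and -0.67, and taking the median of each gene's probe sets brought the 0.42 to 0.00 and the -0.67 to -0.09. PRKAA1 (log2 9.36, 8.60 and 9.88), PRKAA2 (8.42, 7.96 and 8.98) and PRKAB2 (8.28, 7.89 and 8.95) had the order of TXNIP. These 3 of 6 were 2-fold or more lower with wild-type than with mutant, at -1.28, -1.02 and -1.06, against 6.2% of all measured genes. They were less firm than TXNIP: quantile normalization gave -0.94 for PRKAA2 and -0.98 for PRKAB2, an offset -0.90 and -0.94, and the median of probe sets -0.70 for PRKAA1 and -0.22 for PRKAA2. Of 14 FOXO factors and targets, among which TXNIP has been described, all were measured. They had medians of -0.04 (mean 0.03), 0.26 and -0.40, and 10 were lower with wild-type than with mutant, against 40.5% of all measured genes. The -0.40 was -0.20 with the median over probe sets and ranged from -0.52 to -0.20 over the alternatives. The 0.26 ranged from 0.18 to 0.47. SESN3 read 5.70, 6.54 and 7.16, a 2.75-fold excess of mutant over control that was under 2-fold (log2 0.99 and 0.96) once the floor rose to the 60th percentile or gave way to an offset. CITED2 was highest with wild-type (8.76, 10.06 and 9.35) and alone past 2-fold over control there. FOXO1 read 7.60, 7.19 and 8.31, and its -1.12 between the JMJD3 arrays was -0.66 as a median of its probe sets and -0.93 with an offset. KLHL24, singled out after its values were seen, differed by probe set. The shared 206551_x_at read 9.16 with wild-type and 9.53 with mutant, both below control. The unshared 226158_at read 6.97, 6.49 and 9.15, near the pattern of TXNIP. Probe sets 221985_at (6.78, 6.51 and 7.76) and 221986_s_at (5.16, 4.7 and 6.64) had the order of TXNIP too. In 221986_s_at only mutant was above the floor, and 242088_at lay under the floor in every array. The glucocorticoid receptor and its targets had 6 of 8 genes measured and medians of 0.05 (mean -0.04), 0.36 and -0.47. With the median over probe sets the 0.36 was 0.07 and the -0.47 was -0.26, and without shared probe sets the 0.36 was 0.08. In the brightest probe sets KLF9 alone passed 2-fold, with 8.32, 8.59 and 9.96. Mutant thus exceeded control by 1.64 and wild-type by 1.37, or 0.49 and 0.19 as medians of the 5 KLF9 probe sets. The receptor gene NR3C1 was lowest with wild-type, at 11.38, 10.42 and 11.24 in its brightest probe set. Probe set 232431_at of NR3C1 read 8.97, 7.71 and 8.25, with wild-type minus control at -1.26. It was named after its values were seen, and the other NR3C1 probe sets stayed within 2-fold.

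**Figure D4:**
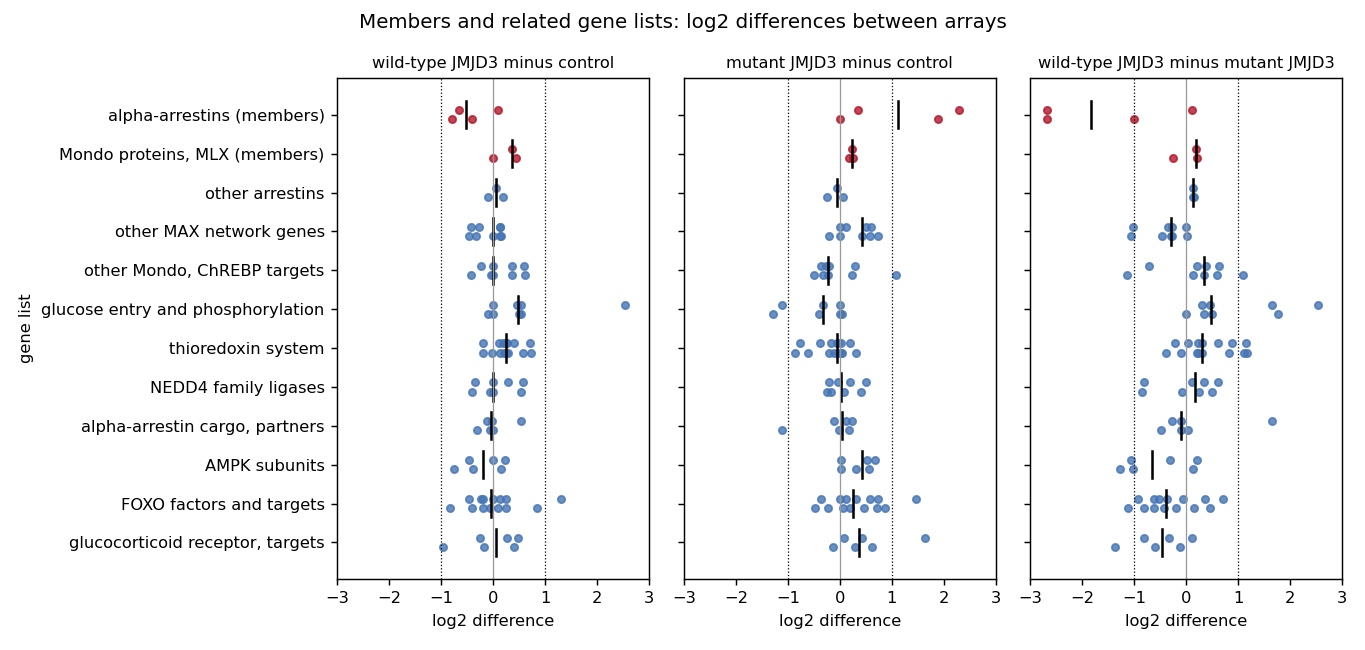
Log2 differences (x axis) of the measured genes of each list (y axis) in the 3 comparisons, 1 point per gene in its brightest probe set, with list medians as black bars, the 7 genes in red and dotted lines at 2-fold. In these probe sets TXNIP and ARRDC4 lie beyond every gene of the other lists on the higher side for mutant against control. They also do so on the lower side for wild-type against mutant, the comparison by which they were chosen. The mutant array values behind that choice enter mutant against control as well. Among the probe sets not drawn, 226158_at of KLHL24 had 2.18 and -2.66 in these comparisons.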

How the data were processed

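Total RNA of 3 PANC-1 lines was measured on 1 array per line. The authors deposited log2 signals for 54613 probe sets, from 2.42 to 14.94. The submitters' processing notes name MAS5 without settings, and how arrays were brought to one scale is not given in these sources. Of the probe sets, by the platform annotation, 41091 had 1 symbol, 1801 had several and 11721 were not listed. The last 2 kinds were given no name. The RefSeq table (GRCh38.p14) matched 41037 of the 41091.

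The probe set with the highest mean stood for its gene. Signals were floored at log2 5.48, the pooled median, and 2-fold was the threshold for counts. Ranks used genes above the floor in both arrays. The 7 genes and the 12 gene lists were chosen with earlier results of these data known. All 7 genes are named. From each list, genes 2-fold apart in any comparison are named, otherwise up to 3 with the largest difference, and other list genes are named as examples chosen with values known. The 7 alternatives are given in the closing section. Calculations were tested on simulated data. The software was Python 3.11.15 with pandas 2.3.3, numpy 2.4.6 and, for plots, matplotlib 3.10.9.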

Additional observations from a re-analysis of the deposited data

How the results depend on the processing

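TXNIP and ARRDC4 kept their direction and their side of 2-fold in all 3 comparisons under the 7 alternatives, except that TXNIP has no value without shared probe sets. Several of these outcomes were fixed in advance. ARRDC4 has only 1 probe set, unshared and above every floor. Moving the floor, taking the median over probe sets or leaving out shared ones could not alter its values. Moving the floor could not alter the brightest TXNIP values either. Wild-type minus mutant ranged from -2.69 to -2.13 for TXNIP and from -2.68 to -2.38 for ARRDC4, and mutant minus control from 1.77 to 2.30 and from 1.72 to 1.89. The number of the 7 genes that were 2-fold or more higher with mutant than in control was 2, and 1 without shared probe sets because TXNIP drops out.

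Several list medians changed sign, became 0 or left 0, and not only small ones: mutant minus control had been 0.42 for the MAX network, -0.33 for glucose entry and 0.23 for the Mondo genes with MLX. With arrays scaled to one median, the wild-type minus control median was 0.02 for NEDD4 ligases, the MAX network and the other Mondo targets. With quantile normalization it was 0.028 for NEDD4 ligases and 0.03 for the MAX network, and mutant minus control for NEDD4 ligases was -0.03. Flooring at the 40th percentile, wild-type minus control for AMPK was 0.00. Flooring at the 60th percentile, that for the MAX network was -0.11, and mutant minus control for other arrestins was 0.005. With the median over probe sets, wild-type minus control was -0.33 for NEDD4 ligases, 0.00 for cargo, -0.13 for the glucocorticoid list, -0.0875 for the MAX network and 0.25 for the other Mondo targets. Mutant minus control was then -0.27 for cargo, 0.00 for glucose entry and 0.035 for other arrestins, and wild-type minus mutant -0.43 for NEDD4 ligases and 0.18 for cargo. Without shared probe sets, wild-type minus control was 0.00 for FOXO, -0.03 for NEDD4 ligases, 0.17 for cargo, -0.25 for the glucocorticoid list, -0.14 for the MAX network and -0.025 for other arrestins. Mutant minus control was -0.18 for cargo, -0.12 for the Mondo genes with MLX and 0.00 for the MAX network, and wild-type minus mutant -0.79 for NEDD4 ligases and 0.49 for cargo. Fewer genes or other probe sets enter these medians by construction, and otherwise the cause was not tested. No paired analysis was possible because each line has 1 array. Signals under the floor give only bounds, and single arrays give no error.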
